A study of Mus musculus with 8 samples.

Results

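Oligodendrocyte lineage and myelin genes were followed in RNA bound to tagged ribosomes of the mouse hippocampus, in wild-type mice and in mice lacking the gene for CTCF in forebrain neurons. The set held 32 genes chosen by name, with every non-control probe that the array annotation gives to one of them. It was divided by name into 6 precursor genes (Pdgfra, Cspg4, Gpr17, Neu4, Olig1 and Olig2) and 26 myelin and other genes. The 32 genes had 43 of the 55663 probes used, and 29 of them (6 precursor genes and 23 of the 26 others) were among the 29529 genes tested.

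The WT mice were labelled Ctcf wild type, positive for Camk2a-Cre and for Ribotag. The CKO mice were labelled Ctcf loxP/loxP and positive for the same 2 transgenes, so by these labels both groups carried the Cre and the tag. All mice were C57BL/6, untreated and at least 3 months old, with 4 mice per group, of which 3 were male and 1 was female. The design text of the series disagrees: it calls the control mice loxP homozygotes and names Camk2a-Cre for the CKO mice alone. Groups were taken from the labels of the single samples, and every WT value and difference below rests on those labels, since a mouse without Cre would have no tagged ribosomes to recover. RiboTag mice carry an Rpl22 gene that gains an HA tag in cells with active Cre, so that anti-HA antibody recovers the ribosomes of those cells together with bound transcripts. The Camk2a promoter drives Cre in forebrain excitatory neurons, so a signal of an oligodendrocyte gene is RNA recovered in a pull-down directed at another cell type. Input RNA was not analysed here, so neither enrichment nor depletion of any gene by the pull-down was measured.

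Oligodendrocytes wrap axons in myelin, a stack of membranes held together by proteins such as myelin basic protein and rich in galactolipids. They arise from precursors that carry the growth factor receptor PDGFRA and the proteoglycan NG2 (Cspg4), under the transcription factors OLIG1, OLIG2 and SOX10. SOX10 binds regulatory DNA of many myelin genes through a short SOX site.

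Promoters of 4 members are printed because they stand at the ends of the results below. The group values of Mag and Neu4 did not overlap, Opalin held the one match to a CTCF pattern, and Mobp held 6 SOX matches. Each covers 250 bases before and 50 after a RefSeq transcription start of the assembly GRCm38.p6, 5′ to 3′ on the gene's strand. Capitals mark the SOX core ACAAAG on either strand (CTTTGT when it lies on the other strand) and, in Opalin alone, the 12-base CTCF pattern (CCA, 2 bases of any kind, AG, 2 bases of any kind, GGC) on the other strand; both strands were searched.

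Mag, chr7:30914814-30915113, minus strand: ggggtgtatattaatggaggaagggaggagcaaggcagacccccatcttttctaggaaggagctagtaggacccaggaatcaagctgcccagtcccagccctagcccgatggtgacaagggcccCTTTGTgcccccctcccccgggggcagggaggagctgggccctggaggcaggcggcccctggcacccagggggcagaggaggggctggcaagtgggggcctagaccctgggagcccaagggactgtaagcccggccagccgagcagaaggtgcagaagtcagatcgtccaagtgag

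Neu4, chr1:94020243-94020542, plus strand: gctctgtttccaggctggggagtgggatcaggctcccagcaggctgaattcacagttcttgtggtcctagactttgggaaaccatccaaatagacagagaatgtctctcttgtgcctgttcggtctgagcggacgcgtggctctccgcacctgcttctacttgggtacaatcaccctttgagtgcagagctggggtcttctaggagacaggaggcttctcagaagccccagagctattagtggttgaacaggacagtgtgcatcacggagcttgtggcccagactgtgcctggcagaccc

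Opalin, chr19:41077064-41077363, minus strand: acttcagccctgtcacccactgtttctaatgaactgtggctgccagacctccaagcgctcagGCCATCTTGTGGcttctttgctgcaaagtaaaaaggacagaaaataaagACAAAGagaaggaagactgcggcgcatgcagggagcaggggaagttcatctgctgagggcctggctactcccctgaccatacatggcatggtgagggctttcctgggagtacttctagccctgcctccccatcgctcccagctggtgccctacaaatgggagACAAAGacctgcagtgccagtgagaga

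Mobp, chr9:120149492-120149791, plus strand: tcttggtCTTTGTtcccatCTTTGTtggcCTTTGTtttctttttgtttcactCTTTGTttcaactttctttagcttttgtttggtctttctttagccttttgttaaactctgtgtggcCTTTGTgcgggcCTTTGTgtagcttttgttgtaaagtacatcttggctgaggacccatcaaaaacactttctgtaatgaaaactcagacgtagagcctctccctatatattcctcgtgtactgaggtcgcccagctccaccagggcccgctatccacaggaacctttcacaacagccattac

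Promoters of 22 of the 32 genes were searched, matched by symbol to RefSeq entries, 31 in all since some genes have several starts. Members on chromosomes 8 and 18 were left out of the search, which took out Fa2h, Mbp and Gpr17. The shares over all promoters below were taken without that exclusion. The first listed start is shown for Mag, which has 3. The SOX core was found in 12 of the 31 promoters, those of 9 genes (Apod, Cnp, Gjb1, Lpar1, Mag, Mobp, Opalin, Plekhb1 and Tspan2), and in 18.7% of all 32851 promoters of the same length. Mobp had 6 matches, Opalin had 2, Mag had 1 and Neu4 had 0. The CTCF pattern was found in 1 of the 31 promoters and in 2.43% of all promoters. The 2 patterns did not overlap in the Opalin promoter. Binding of either factor was not measured in these samples.

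Each mouse was measured on 1 array, and the mice are labelled as biological replicates. Between 72.2% (CKO 3) and 81.5% (WT 1) of probes were well above background. The arrays lay on 3 slides: slide 1 held WT 1 alone, slide 2 held WT 2, WT 3, CKO 1 and CKO 2, and slide 3 held WT 4, CKO 3 and CKO 4. WT 1 therefore had no CKO array on its slide. The Ctcf log2 difference (CKO minus WT) was -0.87 ± 0.22 (SE), with all 4 CKO arrays below all 4 WT arrays (exact two-sided permutation p = 0.0286, the smallest that 4 against 4 allow). Its limma adjusted p over all genes was 0.724. The probe's place relative to the loxP sites is not given in the sources used here. Markers of excitatory neurons, the cells that the Cre is meant to mark, were well above background on all 8 arrays for 14 of 14 genes, and those of all neurons for 12 of 12. Of all genes, 26462 of 35739 were. With 4 arrays per group, precision is set by their number.

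Most of the oligodendrocyte set was measurable in this neuron-directed pull-down. Over all genes, 26462 of 35739 were well above background on all 8 arrays by at least 1 probe. Of the 32 genes of the set, 27 were, and 2 (Opalin and Neu4) were so on between 4 and 7. The remaining 3, Ugt8a, Nkx6-2 and Evi2a, reached background on fewer than 4 arrays and were not tested. Ugt8a, the galactosyltransferase of myelin galactolipid synthesis, and the homeobox factor Nkx6-2 were not well above background on any array. Evi2a was well above background on WT 1 alone. The Ugt8a probe read -5.71, -7.47, -7.24 and -7.62 in WT 1 to WT 4 and -7.25, -7.25, -7.34 and -7.69 in CKO 1 to CKO 4, in units of log2 signal relative to the array's 75th percentile. Nkx6-2 read -6.33, -7.38, -7.36 and -7.65 in WT and -7.43, -6.88, -7.07 and -7.55 in CKO. Evi2a read -4.73, -7.46, -7.39 and -7.61 in WT and -7.32, -7.22, -7.32 and -7.72 in CKO. WT 1 was the brightest of the 8 arrays for each of these 3 genes. Marker lists of other cell types were counted likewise, by at least 1 probe well above background on all 8 arrays. The counts were 13 of 15 astrocyte genes, 13 of 15 microglia genes, 11 of 12 endothelial genes and 9 of 10 choroid plexus genes.

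No member passed the test between genotypes, and the myelin genes differed mostly in one direction. Values are log2 intensities minus the array's 75th percentile, called normalized log2 signal, so that 0 is the level of the 75th percentile probe. Of the 29 members tested with limma, 0 were higher and 0 were lower in CKO at an adjusted p under 0.05, where 0% and 0.00339% of all genes were. At an unadjusted p under 0.05, 5 of the 23 myelin and other genes were higher (Enpp2, Bcas1, Mal, Mag and Qdpr) and 0 were lower, and among the precursor genes 0 of 6 were higher and 1, Neu4, which was dim in CKO, was lower. Over all genes tested 2.5% were higher and 2.8% were lower at that level. A positive difference was measured for 20 of the 23 myelin and other genes and 2 of the 6 precursor genes, against 41.5% of all genes. The median difference was 0.21 for the myelin and other genes and -0.11 for the precursor genes, where the median of all genes was -0.078. Median scaling moved the median of all genes to 0.065, with 21 of 23 and 4 of 6 positive. With the authors' deposited values the unadjusted calls over all genes were 3.6% higher and 1.11% lower, with 20 of 22 and 5 of 6 positive. In a pull-down from whole tissue the number of cells of a type, their RNA per cell and its recovery in the pull-down cannot be told apart.

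**Figure D1:**
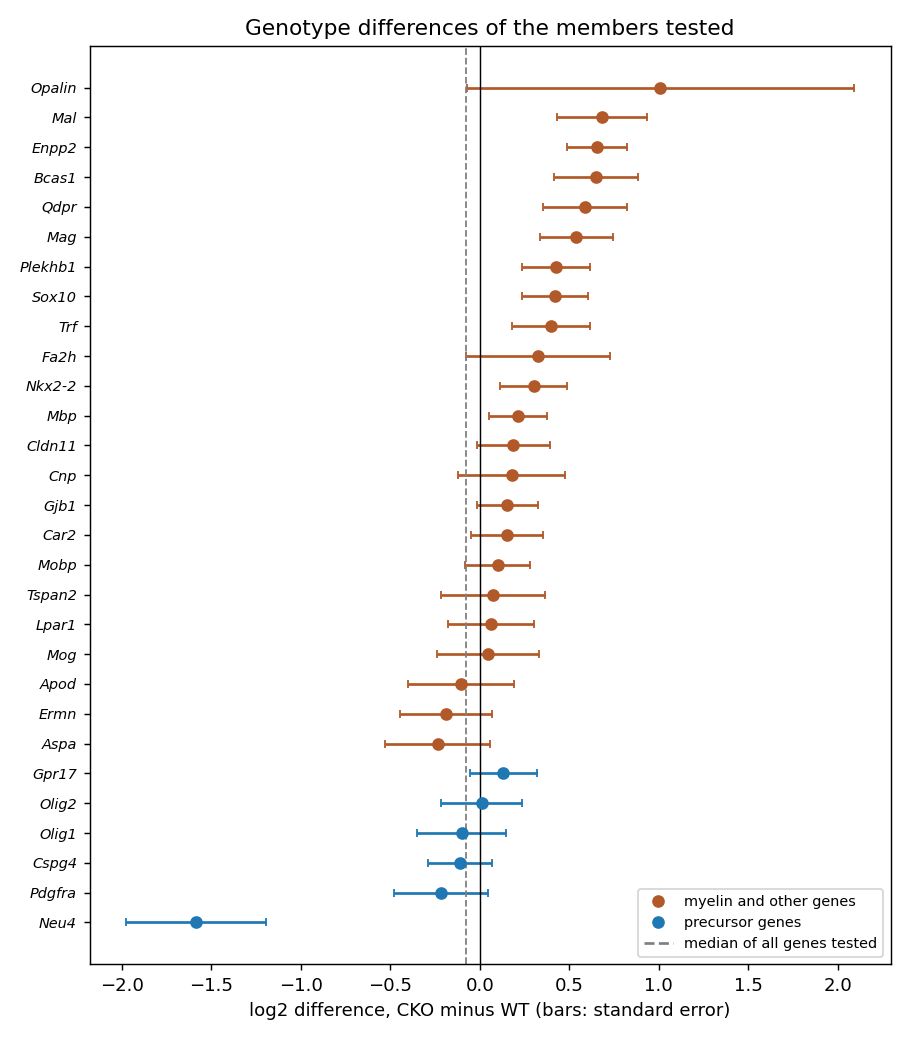
Log2 difference between CKO and WT (horizontal axis, mean of 4 arrays minus mean of 4 arrays) for the 29 members tested, with limma standard errors as bars. The dashed line is the median of all genes tested, -0.078; 20 of the 23 myelin and other genes (brown) lie above 0, and Neu4 (blue, -1.58) lies lowest.

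Differences over all genes followed signal. When genes were divided by mean signal into 10 bins of the same size, the median difference was -0.52 in the lowest bin and 0.16 in the highest. Set against the median of its own signal group, a member's difference was higher for 20 of the 23 myelin and other genes, with a median excess of 0.28, and for 4 of the 6 precursor genes, with a median excess of 0.073.

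Enpp2 encodes autotaxin, the secreted enzyme that makes lysophosphatidic acid, and Lpar1 encodes a receptor for that lipid. The Enpp2 probe lies on chromosome 15 at 54670921 to 54670980 (mm9). Its normalized log2 signal was 1.74, 1.79, 1.48 and 1.54 in WT 1 to WT 4 and 2.19, 2.59, 2.28 and 2.11 in CKO 1 to CKO 4. All 4 CKO arrays lay above all 4 WT arrays, as did those of 1.96% of all genes. The means were 1.64 ± 0.15 and 2.29 ± 0.21 (SD, n = 4 each), and the difference was 0.66 ± 0.17 (SE; exact two-sided permutation p = 0.0286; limma adjusted p = 0.724). Over the alternatives the Enpp2 difference ran from 0.54 to 0.80, and its limma adjusted p from 0.282 to 1. Lpar1 differed by 0.064 (SE 0.24, limma adjusted p = 0.917), and by 0.30 with the slide as a fixed block.

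Enpp2 is also a strong gene of the choroid plexus epithelium. Of 9 choroid plexus genes tested, 0 passed with limma and 3 were higher and 0 lower at an unadjusted p under 0.05. Over all genes 2.5% were higher and 2.8% lower at that level. A positive difference was measured for 6 and a negative one for 3, and the median was 0.37. All CKO arrays lay above all WT arrays for 3 of the 9 (Ttr, Kl and Sostdc1), against 1.96% of all genes. Ttr, the transthyretin gene, read 1.9996, 2.44, 0.92 and 2.31 in WT 1 to WT 4 and 3.29, 3.51, 3.00 and 2.50 in CKO 1 to CKO 4, a difference of 1.16 ± 0.36 (SE; limma adjusted p = 0.724). The summed signal of the list, with the 75th percentile of each array set to 1, was 6.33 to 10.3 in WT and 9.97 to 16.9 in CKO, and each of the 9 genes was well above background on all arrays. CKO 2 was the highest array for Ttr and for Enpp2 alike, and CKO 3 was the highest for Kl (-1.33) and Sostdc1 (-1.93). CKO 2 was the highest for 6 of the 23 myelin and other genes, Enpp2 among them, against 8.85% of all genes. The part of choroid plexus RNA in the Enpp2 difference was not tested.

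Mag encodes myelin-associated glycoprotein, which sits on the innermost myelin membrane facing the axon. Its probe lies on chromosome 7 at 31684202 to 31684261 (mm9). The Mag signal was 1.83, 1.42, 1.48 and 1.54 in WT 1 to WT 4 and 1.86, 2.59, 2.08 and 1.89 in CKO 1 to CKO 4. The groups did not overlap, but WT 1 and CKO 1 lay close together and CKO 2 was the highest. The means were 1.57 ± 0.18 and 2.11 ± 0.34 (SD, n = 4 each), and the difference was 0.54 ± 0.20 (SE; exact two-sided permutation p = 0.0286; limma adjusted p = 0.724). Without CKO 2 it was 0.38.

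The other surface and junction genes differed less or less precisely. Mog, the myelin oligodendrocyte glycoprotein on the outer face of the sheath, differed by 0.049 (SE 0.28), and by 0.28 with the slide as a fixed block. The gap junction gene Gjb1 differed by 0.15 (SE 0.17). Opalin, a transmembrane protein of oligodendrocytes, exceeded background on 2 arrays of the WT group and 3 of the CKO group. Its signal was -3.83, -3.42, -7.51 and -7.77 in WT 1 to WT 4 and -3.98, -6.29, -4.78 and -3.44 in CKO 1 to CKO 4. Its dim readings fell in both groups, and the difference of 1.01 had a standard error of 1.08. It was 1.66 with the slide as a fixed block. With normexp background correction and quantile normalization Opalin differed by 0.26.

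Of the structural myelin genes Mal stood apart. Mal, a proteolipid of myelin membrane trafficking, has its probe on chromosome 2 at 127458976 to 127459035 (mm9). The Mal signal was -1.003, -2.20, -1.60 and -1.64 in WT 1 to WT 4 and -1.04, -1.10, -0.66 and -0.91 in CKO 1 to CKO 4. WT 1 alone among the WT arrays reached the CKO range. The Mal difference was 0.68 ± 0.25 (SE; exact two-sided permutation p = 0.0857; limma adjusted p = 0.724), and 0.89 without WT 1. Plekhb1, a pleckstrin homology protein, read 1.94, 1.51, 1.42 and 1.52 in WT and 2.28, 2.10, 2.03 and 1.69 in CKO. Its difference was 0.43 (SE 0.19), and WT 1 again lay inside the CKO range.

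The remaining structural genes had smaller differences in the fit without slides. Mbp, whose protein holds the cytoplasmic faces of myelin together, differed by 0.21 (SE 0.16), with 3.53, 3.46, 3.40 and 3.22 in WT 1 to WT 4 and 3.68, 3.77, 3.67 and 3.34 in CKO 1 to CKO 4. With the authors' deposited values the Mbp difference was 0.0057. Mobp, another basic protein of compact myelin, differed by 0.10 (SE 0.18). Cnp, the cyclic nucleotide phosphodiesterase of non-compact myelin, differed by 0.18 (SE 0.30), and the tight junction gene Cldn11 by 0.19 (SE 0.20). Tspan2 differed by 0.074 (SE 0.29), and Ermn, a cytoskeletal protein of mature oligodendrocytes, by -0.19 (SE 0.26). Without WT 1 the differences were 0.49 for Cnp, 0.35 for Cldn11, 0.33 for Tspan2 and -0.12 for Ermn. With the slide as a fixed block they were 0.48, 0.38, 0.28 and -0.041. Cnp and Cldn11 were then among the members higher at an unadjusted limma p under 0.05. Of these 8 structural genes 7 had a positive difference, with a median of 0.18.

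Bcas1 marks oligodendrocytes that are forming myelin. Its probe lies on chromosome 2 at 170172648 to 170172707 (mm9). The Bcas1 signal was 0.84, 0.11, 0.24 and 0.27 in WT 1 to WT 4 and 1.18, 1.08, 1.29 and 0.49 in CKO 1 to CKO 4. WT 1 lay above CKO 4, and on slides 2 and 3 every CKO array lay above the WT arrays. The Bcas1 difference was 0.65 ± 0.24 (SE; exact two-sided permutation p = 0.0571; limma adjusted p = 0.724).

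Among the enzymes and carriers Qdpr had the largest difference. Qdpr encodes dihydropteridine reductase, which regenerates the cofactor tetrahydrobiopterin and is made in many cell types. The Qdpr signal was 1.17, 0.32, 0.60 and 0.94 in WT 1 to WT 4 and 1.10, 1.11, 1.71 and 1.47 in CKO 1 to CKO 4. WT 1 lay above CKO 1 and CKO 2, and the slide 3 arrays were the highest of the CKO group. The Qdpr difference was 0.59 ± 0.23 (SE; exact two-sided permutation p = 0.0857; limma adjusted p = 0.724). A second Qdpr probe differed by 0.079. The iron carrier Trf, which the choroid plexus also makes, read 2.71, 1.99, 2.12 and 2.11 in WT and 2.78, 2.90, 2.59 and 2.25 in CKO, a difference of 0.40 (SE 0.22). Fa2h, which hydroxylates myelin fatty acids, differed by 0.33 (SE 0.40), and the carbonic anhydrase Car2 by 0.15 (SE 0.20). Aspa, the aspartoacylase that breaks down N-acetylaspartate in oligodendrocytes, differed by -0.24 (SE 0.29), and the lipocalin Apod by -0.11 (SE 0.30). With the slide as a fixed block Fa2h differed by 0.66 and Aspa by -0.022.

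The 2 transcription factors tested outside the precursor group both had positive differences. Sox10 read 0.59, 0.39, 0.23 and 0.21 in WT and 0.39, 1.06, 0.84 and 0.79 in CKO, and the groups overlapped through WT 1 and CKO 1. Sox10 had 0.42 (SE 0.19) and Nkx2-2 had 0.30 (SE 0.19), with limma adjusted p of 0.724 for each. A second Nkx2-2 probe was not well above background on any array and was not tested.

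**Figure D2:**
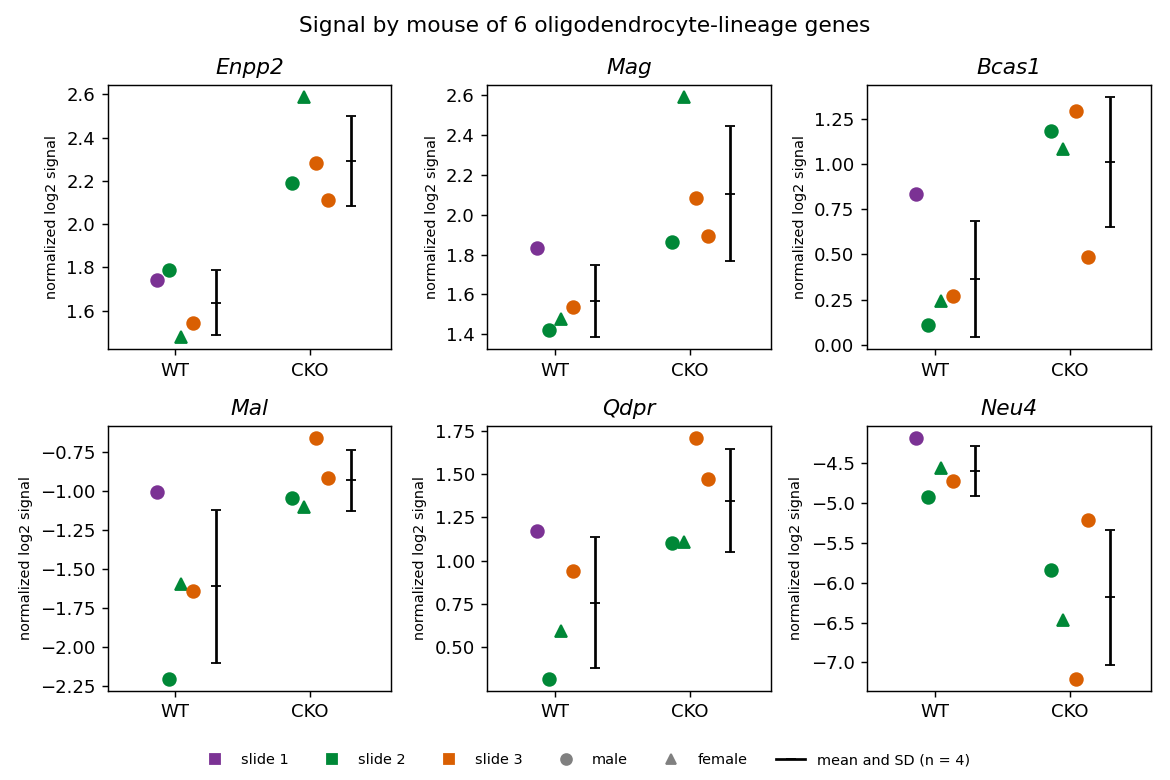
Normalized log2 signal (vertical axis) of 6 genes in the 4 WT and 4 CKO mice, 1 point per mouse, coloured by slide and shaped by sex, with the group mean and SD in black. Enpp2, Mag and Neu4 do not overlap between the groups, and for Bcas1, Mal and Qdpr the purple point, WT 1, is the WT array that reaches the CKO range.

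Where a gene had several probes past the background filter, they gave the same sign in 7 of 8 genes. The 8 genes had 18 such probes. The 3 Mbp probes differed by 0.21, 0.21 and -0.018, and the 3 Mobp probes by 0.10, 0.051 and 0.26. The second probes of Trf, Plekhb1 and Apod differed by 0.27, 0.17 and -0.38, that of Ermn by -0.0019, and that of Tspan2, well above background on 4 of 8 arrays, by 0.88.

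The precursor genes gave 1 non-overlapping gene, at the edge of detection. Neu4 encodes a sialidase found on precursor cells, and its probe lies on chromosome 1 at 95924642 to 95924701 (mm9). The Neu4 signal was -4.19, -4.92, -4.56 and -4.73 in WT 1 to WT 4 and -5.85, -6.47, -7.20 and -5.22 in CKO 1 to CKO 4. All CKO arrays lay below all WT arrays, as did those of 1.36% of all genes. Neu4 was well above background on 4 WT arrays and on 1 CKO array, so it was kept for testing through the WT group, where it was higher, and the absence of overlap is given as a description. With 3 CKO arrays near background, the fitted Neu4 difference of -1.58 (limma adjusted p = 0.724) is not a measured ratio, and the median of the dimmest signal group was -0.52. Under quantile normalization the Neu4 difference was -0.97, and -0.17 where normexp background correction came first.

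The 5 other precursor genes were well above background on all arrays and differed by less than 1 standard error. Pdgfra, the receptor for platelet-derived growth factor, read -3.18, -4.27, -3.92 and -3.82 in WT 1 to WT 4 and -4.41, -3.60, -4.00 and -4.03 in CKO 1 to CKO 4. Its difference was -0.22 ± 0.26 (SE), and WT 1 was its highest array. It was -0.028 with the slide as a fixed block and -0.010 without WT 1. Gpr17, a receptor of committed precursors, read -1.66, -1.82, -1.89 and -2.12 in WT and -1.89, -1.49, -1.54 and -2.04 in CKO. Its difference was 0.13 ± 0.19 (SE), and 0.23 with the slide as a fixed block. Cspg4, the NG2 proteoglycan that pericytes also make, read -1.10, -0.73, -0.63 and -0.95 in WT and -0.75, -0.80, -1.13 and -1.17 in CKO. Its difference was -0.11 ± 0.18 (SE). The paired bHLH factors Olig1 and Olig2 differed by -0.10 (SE 0.25) and 0.011 (SE 0.23), and with the slide as a fixed block by 0.13 and 0.15. The sign of the Olig1 and Pdgfra differences turned with quantile normalization, to 0.032 and 0.11. Further precursor genes outside the set had a median of -0.14 over 13 tested, with 5 above 0 and 8 below. None of the 13 passed with limma. At an unadjusted p under 0.05, 1 was higher and 0 were lower, beside 2.5% and 2.8% of all genes. The higher one was C1ql1 (1.02, SE 0.26), a secreted C1q-like protein that neurons also make. The next by p was Epn2 at 0.43.

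WT 1 stood apart from the other WT arrays, and since it was alone on its slide, mouse and slide cannot be told apart. WT 1, alone on slide 1, was the highest of the 8 arrays for 6 of the 23 myelin and other genes and 4 of the 6 precursor genes, where it was the highest for 12.8% of all genes. The lowest array was WT 2 for 9 and WT 4 for 8 of the 23, against 13.1% and 10.9% of all genes. Over all genes CKO 3 was most often extreme, the highest array for 22.2% and the lowest for 32.4%. It was the highest for 5 and the lowest for 3 of the 23 myelin and other genes. The median deviation of the myelin and other genes from each gene's mean was 0.22 in WT 1 and -0.18, -0.25 and -0.35 in WT 2, WT 3 and WT 4. It was 0.11, 0.26, 0.16 and 0.0049 in CKO 1 to CKO 4. WT 1 thus lay among the CKO arrays, and the other WT arrays lay below all of them.

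Within slides, 12 of the 23 myelin and other genes (52.2%) had every CKO array above every WT array of the same slide on both slide 2 and slide 3, where 7.07% of all genes had. These were Bcas1, Cldn11, Cnp, Enpp2, Mag, Mal, Mbp, Nkx2-2, Plekhb1, Qdpr, Sox10 and Trf, and 0 of the 23 were lower on both slides, against 8.26% of all genes. On slide 2 alone the counts were 16 higher and 1 lower, against 18.6% and 25.7% of all genes, and on slide 3, with its single WT array, 17 and 2, against 26.9% and 27.3%. Of the 6 precursor genes 0 were higher and 2, Cspg4 and Neu4, lower on both slides, against 7.07% and 8.26% of all genes. Neu4 was kept for testing through the WT group, where it was higher, so its order is given as a description. Over the other scalings, filters and values, and with any 1 array of slides 2 and 3 left out except WT 4, the count for myelin and other genes ran from 11 to 15 and the share of all genes from 6.54% to 15.2%. Without WT 4 slide 3 has no WT array. Leaving out an array can only keep or raise the count and the share, so those runs could not have lowered either. The within-slide count was chosen after the data were seen. With the slide as a fixed block in limma, 11 members were higher and 1 lower at an unadjusted p under 0.05, against 2.39% and 3.77% of all genes. The median difference of the myelin and other genes was then 0.43, 0.39 within slide 2 and 0.45 within slide 3, and 0.42 without WT 1. None passed the adjusted threshold with any of these.

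**Figure D3:**
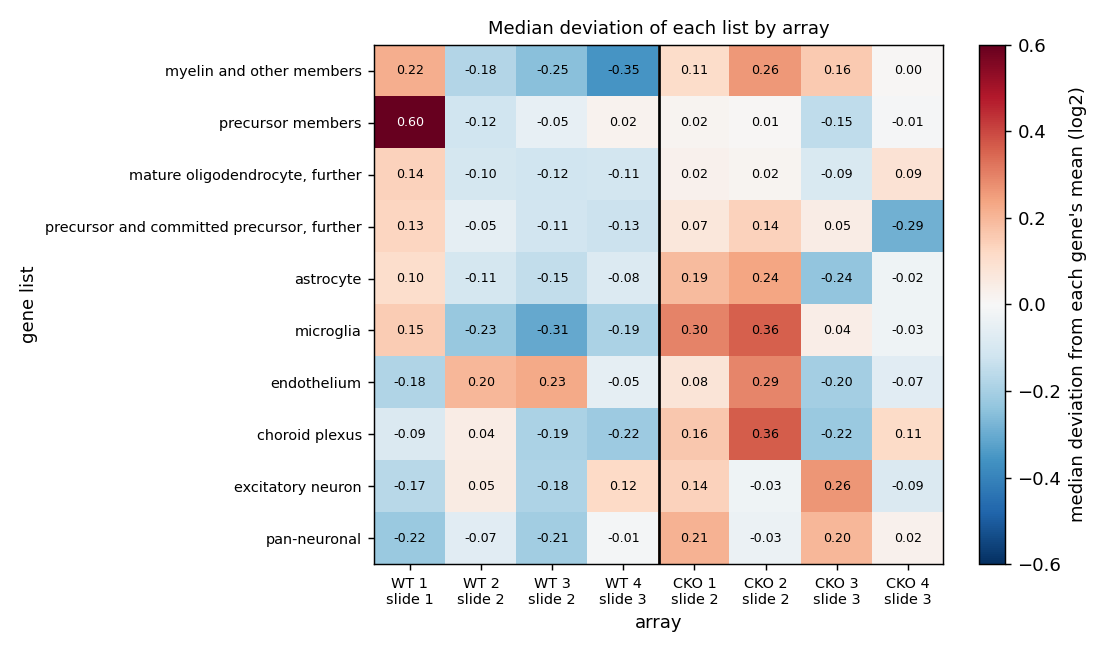
Median deviation (log2, colour and printed value) of each gene list from its genes' own means over the 8 arrays, with arrays in columns and the line dividing WT from CKO. The myelin and other members are positive in WT 1 (0.22) and negative in WT 2 to WT 4, and the precursor members are highest in WT 1 (0.60).

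Further genes of mature oligodendrocytes lay on both sides of 0. Of 23 such genes tested outside the set 13 had a positive and 10 a negative difference, with a median of 0.053. None passed with limma. At an unadjusted p under 0.05, 0 were higher and 1 was lower, beside 2.5% and 2.8% of all genes. The lower one was Hapln2, a link protein at nodes of Ranvier (-0.53, SE 0.22). The protease Klk6 differed by -0.74 (SE 0.34). Within slides 2 and 3 both, 3 of the 23 (13.0%) were higher and 3 lower, beside 7.07% and 8.26% of all genes. Further genes of the transcription network had a median of -0.12 over 11, with Id2, an inhibitor of differentiation factors, at -0.78 (SE 0.29) and Zeb2 at 0.57 (SE 0.26). Further genes of myelin lipid synthesis had a median of 0.17 over 13, 10 of them above 0, with the elongase Elovl7 at 0.68 (SE 0.28) and the peroxisomal import receptor Pex7 at 0.49 (SE 0.24). Ligands and receptors of the lineage had a median of -0.035 over 21, 10 above 0 and 11 below. None of the genes of these 3 lists passed with limma, and at an unadjusted p under 0.05, 1 was higher (Elovl7) and 1 lower (Id2). Some genes, such as Gpr37 and S1pr5, stood in more than 1 of the further lists.

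Several lists of markers of other cells also had positive median differences. Microglia genes had a median difference of 0.20 over 14, 13 of them above 0. Within slides 2 and 3 both, 35.7% of the microglia genes were higher, 33.3% of choroid plexus, 25.0% of pan-neuronal, 23.1% of astrocyte, 21.4% of excitatory neuron, 11.1% of interneuron and 8.33% of endothelial genes, beside 7.07% of all genes. Lower on both slides were 2 of 12 endothelial, 1 of 9 choroid plexus and 1 of 14 excitatory neuron genes, beside 8.26% of all genes. The count was 0 for microglia, pan-neuronal, astrocyte and interneuron genes. Laptm5, a lysosomal protein of microglia, differed by 0.55 (SE 0.19). Astrocyte genes had a median of 0.16 over 13, 9 of them above 0, with Mlc1 at 0.71 (SE 0.28) and Aldoc at 0.48 (SE 0.20). Pan-neuronal genes had 0.23 over 12, all 12 above 0, with Tubb3 at 0.47 (SE 0.17) and Map2 at 0.40 (SE 0.21). Excitatory neuron genes had 0.26 over 14, 10 above 0, with Nrgn at 0.59 (SE 0.28) and the dentate gyrus factor Prox1 at -0.41 (SE 0.18). Endothelial genes had -0.061 over 12, 4 above 0, with Itm2a at 0.77 (SE 0.30) and Pecam1 at -0.85 (SE 0.34). None of these genes passed with limma. At an unadjusted p under 0.05, 2.5% of all genes were higher and 2.8% lower. The counts of higher and lower genes were 4 and 0 for microglia, 2 and 0 for astrocytes and 1 and 0 for pan-neuronal genes. They were 0 and 0 for excitatory neurons and 1 and 1 for endothelium. The summed signal of the myelin and other genes was 35.8 to 46.0 in WT and 41.8 to 57.0 in CKO. That of microglia was 35.2 to 45.2 and 36.7 to 44.0, and that of astrocytes 39.5 to 45.0 and 38.9 to 52.7. Such a sum is weighted to its brightest genes. For microglia these were Siglech (mean 4.20 in WT and 4.21 in CKO) and Csf1r (4.02 and 4.05). Pan-neuronal genes summed to 213 to 247 and 222 to 294. The part of these cells' RNA, or of overall signal, in the myelin gene differences was not tested.

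**Figure D4:**
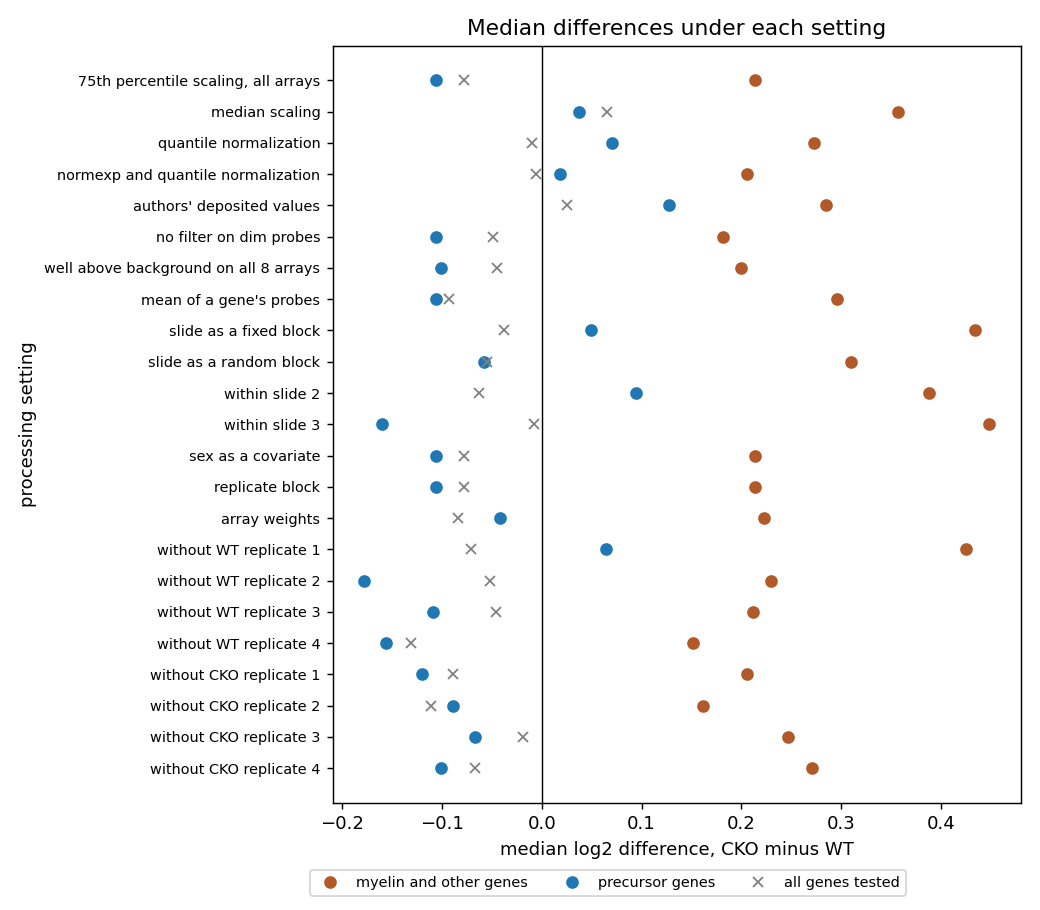
Median log2 difference (horizontal axis) of the myelin and other genes, the precursor genes and all genes tested under each processing setting (vertical axis). The myelin and other genes lie above 0 in every setting drawn, from 0.15 without WT 4 to 0.45 within slide 3, while the precursor genes lie on both sides of 0.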

How the data were processed

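RNA from anti-HA immunoprecipitates of 8 hippocampi was amplified and Cy5-labelled, per the labels' protocols, and measured on 1-colour arrays. Spot intensity was deposited by the authors as output of Agilent Feature Extraction (11.5 in the submitters' processing notes), background-subtracted and detrended within arrays, per the file headers, which name the build mm9. A table of linear intensity per spot, deposited by the authors, was an alternative; its normalization is not given in the sources used here.

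Flagged spots were left out of 59305 non-control spots, and spots of a probe were averaged. Log2 processed signal minus the array's 75th percentile was used. Probes well above background on at least 4 arrays were kept, and the probe with the highest mean stood for its gene. The group difference of each gene was tested two-sided by lmFit and eBayes of limma (3.58.1, under R 4.3.3), adjusted by Benjamini-Hochberg over 29529 genes at 0.05, and tested on simulated data. Members, the 12 further lists and the rule for naming genes (every member; single-array values for those with the smallest p, without overlap, or dim) were chosen with earlier results of these data known; the values of 1 gene that the rule names are not reported here. Names came from accessions through a RefSeq table of GRCm38.p6. Alternatives were other scalings, values, filters and probe rules, slide, sex and replicate number as terms, array weights and each array left out.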

Additional observations from a re-analysis of the deposited data

Results flagged for a closer look

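Cnp and Olig1 each had 1 WT array far from the others, in both cases WT 1. Cnp read -1.68 in WT 1, with the next WT array at -2.84 and the lowest at -3.02. Olig1 read -1.31 in WT 1, with the next at -2.24 and the lowest at -2.30. These were 2 of 58 groups of 4 arrays examined, where chance gives about 1 in 20.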

How the results depend on the processing

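No member passed an adjusted p of 0.05 in any of the limma alternatives, and the smallest adjusted p was 0.275 (Neu4, array weights). The count of members higher in CKO at an unadjusted p under 0.05 was 5, beside 2.5% of all genes. It was 9 with median scaling (3.02% of all genes), 11 with the slide as a fixed block (2.39%) and 8 with it as a random block (3.77%). With the replicate block it was 3 (1.29%). Leaving out 1 array it ran from 1 without WT 2 (1.26%) to 10 without WT 1 (1.31%). It was 2 without WT 3 (1.39%) and 2 without CKO 3 (1.14%). The count of lower members was 1, beside 2.8% of all genes. It was 0 with normexp and quantile normalization (1.7% of all genes) and within slide 2 (1.81%). It was also 0 with probes well above background on all 8 arrays (2.43%), where Neu4 is not tested. Replicate numbers did not pair the mice (correlations of deviations from -0.42 to 0.39). The median difference of the myelin and other genes was 0.21, and 0.43 with the slide as a fixed block, 0.45 within slide 3 and 0.15 (without WT 4) to 0.42 (without WT 1) leaving out 1 array; that of the precursor genes was -0.11, and -0.18 to 0.064 leaving out 1 array. The within-slide count was 12, beside 7.07% of all genes. Leaving out 1 array of slides 2 and 3 other than WT 4, it ran from 12 to 15. The share of all genes then ran from 7.98% to 15.2%. Leaving out an array can only keep or raise the count and the share, so these runs could not have lowered either.

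Of 29 members 16 kept their sign in every alternative where they were tested, among them Enpp2, Mag, Mal, Bcas1 and Qdpr. Neu4 was also among the 16, over 21 alternatives. It was kept for testing through the WT group, where it was higher, so its sign is given as a description. The sign turned for Olig1 with array weights (0.010), for Aspa (0.029), Olig1 (0.13), Pdgfra (0.13) and Cspg4 (0.036) with the authors' deposited values, and for Olig1 (0.043), Cspg4 (0.033) and Apod (0.038) with median scaling. It turned for Olig1 (0.014) and Pdgfra (0.024) with normexp and quantile normalization, for Olig1 (0.032) and Pdgfra (0.11) with quantile normalization, for Olig1 (0.13) with the slide as a fixed block, and for Olig1 (0.11) and Pdgfra (0.082) within slide 2. Within slide 3 it turned for Mobp (-0.012), Ermn (0.093), Aspa (0.58), Olig1 (0.15), Olig2 (-0.13), Tspan2 (-0.081) and Car2 (-0.13). Leaving out 1 array, the difference ran from -0.043 to 0.53 for Fa2h, -0.11 to 0.23 for Lpar1, -0.17 to 0.17 for Olig2, -0.12 to 0.33 for Tspan2, -0.13 to 0.28 for Mog, -0.25 to 0.12 for Apod and -0.19 to 0.14 for Olig1. The causes were not tested. Dim probes (Neu4, Opalin, Ugt8a, Nkx6-2, Evi2a) limit what can be read from them.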

Other observations

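Interneuron genes, a neuron class outside the Camk2a-Cre cells, had a median difference of 0.12 over 9 tested, 8 of them above 0, with the calcium-binding protein gene Pvalb at 0.55 (SE 0.21) and the peptide gene Npy at 0.37 (SE 0.28). None passed with limma. At an unadjusted p under 0.05, 1 was higher and 0 were lower, beside 2.5% and 2.8% of all genes. Of the ligands and receptors of the lineage, the sphingosine phosphate receptor S1pr5 of mature oligodendrocytes differed by 0.57 (SE 0.33) and the growth factor Fgf2 by -0.34 (SE 0.21), the 2 with the smallest p.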
